A study of Homo sapiens with 4 samples.

Results

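The translation initiation factors are the proteins that load a small ribosomal subunit with initiator methionyl-tRNA, bring it to a messenger RNA and join it to the large subunit at the start codon. Genes were taken by symbol, from the EIF1 to the EIF6 series, without the Argonaute genes that once carried EIF2C symbols and without the eIF2 kinases (EIF2AK). This gave 52 of the 23228 genes in the count files. RNA had been sequenced in A673 cells, a human line of Ewing sarcoma with the EWSR1-FLI1 fusion oncogene. The cells were transfected with Lipofectamine RNAiMAX and harvested at 24 h or 48 h, so the 4 groups were FAT4 siRNA at 24 h, FAT4 siRNA at 48 h, control siRNA at 24 h and control siRNA at 48 h. The labels describe the control as a scramble siRNA, and every group shared the cell line, the medium and the transfection reagent. Each group was 1 library, with no replicate culture, and the labels do not say whether more than 1 FAT4 siRNA sequence was used. FAT4 itself encodes a large atypical cadherin known for planar cell polarity and growth control.

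In initiation, eIF2 carries the initiator tRNA as a complex with GTP, and eIF2B recharges it with GTP after each round. The eIF3 complex holds the small subunit, while eIF4E binds the cap of the messenger, eIF4G bridges the cap to eIF3, and eIF4A unwinds the leader. The eIF4E-binding proteins compete with eIF4G for eIF4E and are switched off by mTOR phosphorylation. Growing tumour cells are known for high demand on these factors.

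Counts assigned to genes totalled 15196813 and 15413960 with the FAT4 siRNA at 24 h and 48 h, against 22625833 and 19614913 with the control siRNA, so the FAT4 siRNA libraries were the shallower ones at both times. The part of depth in the results was not tested. Levels are given as CPM, read counts corrected for library depth with TMM factors unless called plain, and 3 counts in a library, taken as the limit of detection, came to 0.133 to 0.197 CPM. FAT4 had 71.8 and 60.2 CPM with its siRNA, against 165 and 149 CPM in the control libraries, a plain CPM ratio of 0.429 at 24 h and 0.400 at 48 h. Of 8 markers of Ewing sarcoma lines, 7 were above 1 CPM in all 4 libraries and CD99 was listed at 0, while all 4 epithelial and all 4 haematopoietic markers were below 1 CPM. The 0 of CD99 was read as no measurement and not as absence of its RNA, and its cause was not tested. Of 3 fibroblast markers, DCN was above 1 CPM in all libraries, and their summed level was 1.89 and 3.13 CPM with the FAT4 siRNA, against 1.25 and 2.39 CPM in the control libraries.

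Of the 52 genes, 46 passed the filter on low counts and were tested. EIF4A1, a main helicase of the cap-binding complex, and EIF3C and EIF3CL, copies of a core eIF3 subunit, were listed at 0 counts in every library. In GENCODE release 29 transcripts, 100% of the 50-base words of EIF4A1 also occurred in transcripts of other genes. The same held for 95.6% of the words of EIF3C and 98.7% of those of EIF3CL, which they share with each other. Their zeros were therefore read as no measurement. The read-through gene SENP3-EIF4A1 had 5 and 5 counts with the FAT4 siRNA, against 16 and 4 counts in the control libraries. EIF4E1B had at most 1 count in any library. EIF4EBP3, which shares 71.8% of its words with the read-through gene ANKHD1-EIF4EBP3, had 1 and 5 counts with the FAT4 siRNA, against 7 and 8 counts in the control libraries. EIF1AY, on the Y chromosome, also had 0 counts in every library and did not pass the filter. None of its 50-base words occurred in another gene, and the cause of its zeros was not tested. EIF3IP1 is a pseudogene of EIF3I and was tested with the rest.

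Together the 52 genes held 1.23% and 1.13% of gene counts with the FAT4 siRNA at 24 h and 48 h, against 1.18% and 1.09% in the control libraries. EIF4A1, EIF3C and EIF3CL, read as not measured, add nothing to these shares and could not be ranked by level. Counts of a gene for each count of another, given further below, were not scaled by length and serve only to compare libraries. Levels of different genes were ranked per length, as counts per kilobase of 1 reference transcript. These were rescaled to the same total (as in TPM) in each library. On that scale the mean level over the 4 libraries was highest for EIF4G2, an eIF4G relative that lacks the eIF4E-binding region, at 1624. The helicase EIF4A2 followed at 626, then EIF5A at 587, EIF4EBP1 at 579 and the eIF3 subunit EIF3K at 522. EIF4G2 stood well above the next gene, and the other 4 lay within a narrow range. Before scaling by length, EIF4G2 had 2585 and 2093 CPM with the FAT4 siRNA, against 2397 and 2008 CPM in the control libraries. EIF4A2 had 418 and 461 CPM with the FAT4 siRNA, against 390 and 404 CPM in the control libraries. With the median length of each gene's RefSeq-linked transcripts, EIF4G2 stayed first and EIF3M replaced EIF4EBP1 among the top 5. For EIF4E the level depended on the transcript chosen, with 7.3 for a length of 11523 bases and 71.2 for the median length of 1097 bases.

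The comparison of the siRNAs asked which initiation factors differed with the FAT4 siRNA on average over both times. All 3 subunits of eIF2 rose, with the eIF3 subunits EIF3J and EIF3E, the GTPase activator EIF5, the tRNA delivery factor EIF2A, the exchange factor subunit EIF2B2, and EIF4EBP2, an inhibitor of eIF4E. EIF4A3, the RNA helicase at the core of the exon junction complex, fell the most among genes above 20 CPM, and EIF5A, EIF5AL1, EIF4G3 and EIF3B fell too. By the quasi-likelihood test of edgeR, 14 of the 46 tested genes (30.4%) were called at an adjusted p under 0.05 over all genes tested, against 25.9% of all 13712. It called 9 higher (19.6%, against 11.9% of all genes) and 5 lower (10.9%, against 14.1%), and the other 32 were not called. The median log2 fold change was 0.080 over the 46 genes, against -0.014 over all genes tested. The share called in either direction lay near that of all genes. With 1 library per group, the test sets each change against a spread taken from all genes. RNA came from whole cultures, so a change in the share of a kind of cell and a change in RNA per cell cannot be told apart.

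**Figure D1:**
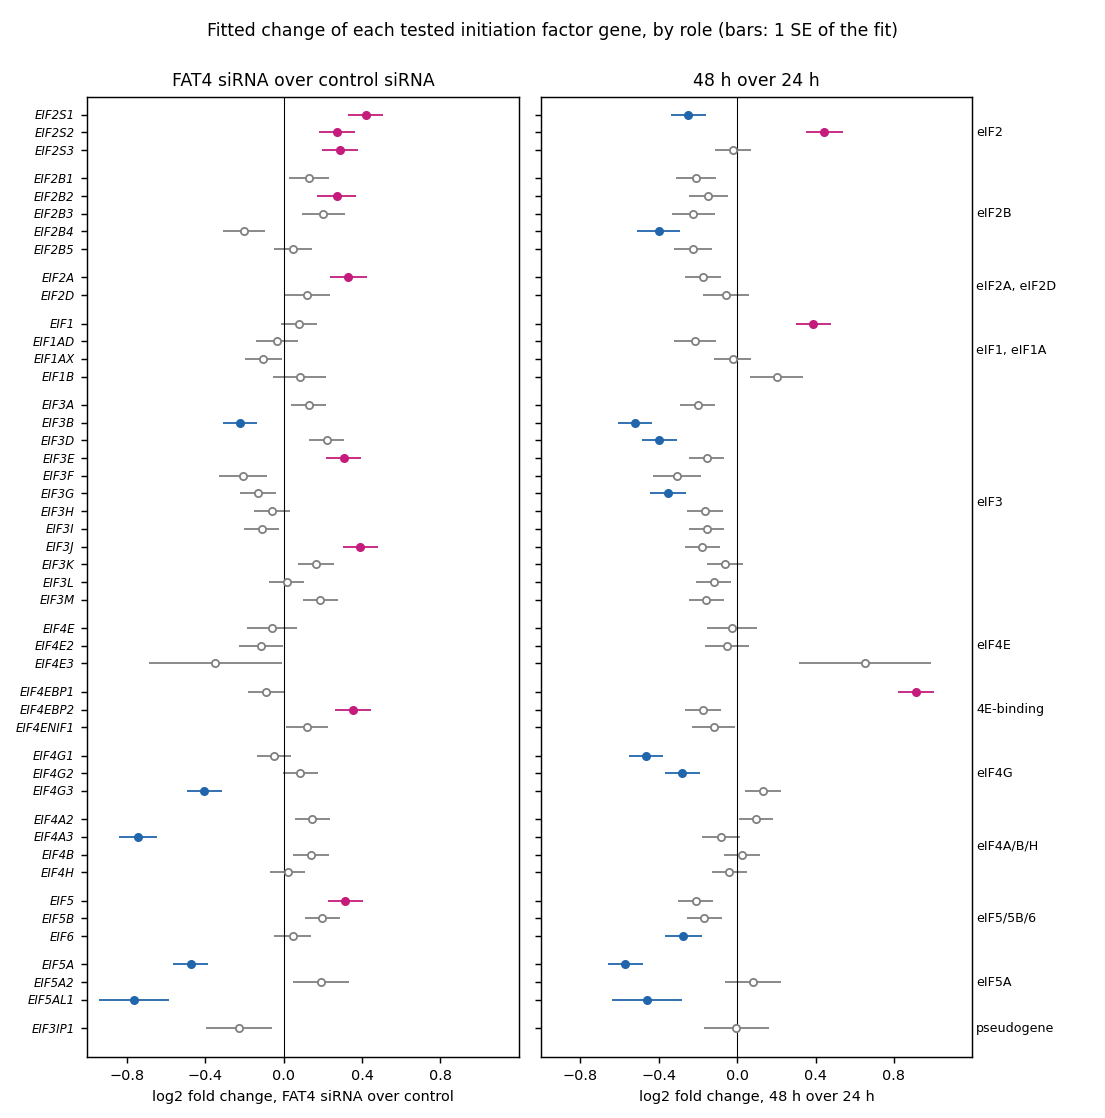
Each row is 1 of the 46 tested genes, grouped by role, with its edgeR log2 fold change for FAT4 siRNA over control siRNA (left) and for 48 h over 24 h (right). Bars are 1 SE of the fit over 4 libraries, and filled points passed an adjusted p of 0.05, pink for higher and blue for lower. All 3 eIF2 genes lie right of 0 on the left side, and the 12 tested eIF3 genes lie left of 0 on the right side.

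Transcripts of the eIF2 trimer, which carries the initiator tRNA, were higher for each subunit. EIF2S1 encodes the alpha subunit, the target of the stress kinases, and had 299 and 245 CPM with the FAT4 siRNA at 24 h and 48 h, against 218 and 189 CPM in the control libraries. Both FAT4 siRNA values lay above both control values. The plain CPM ratio was 1.35 (95% counting interval 1.30 to 1.41) at 24 h and 1.29 (1.23 to 1.35) at 48 h. The edgeR log2 fold change over both times was 0.42 (SE 0.0901, adjusted p = 5.79e-05). EIF2S3, the GTP-binding gamma subunit, had 234 and 220 CPM with the FAT4 siRNA, against 183 and 189 CPM in the control libraries, also without overlap (edgeR log2 fold change 0.29, SE 0.0909, adjusted p = 0.00935). EIF2S2, the beta subunit, had 134 and 176 CPM with the FAT4 siRNA, against 107 and 151 CPM in the control libraries (edgeR log2 fold change 0.27, SE 0.0938, adjusted p = 0.0188). Its groups overlapped, since it also differed between the times, but it was higher with the FAT4 siRNA at each time. With DESeq2 in place of edgeR, EIF2S1 kept its call and EIF2S2 and EIF2S3 did not. Summed over the 3 genes, eIF2 had 667 and 641 CPM with the FAT4 siRNA, against 508 and 528 CPM in the control libraries, a ratio of 1.31 at 24 h and 1.21 at 48 h. In the reference transcripts EIF2S3 shared 23.2% and EIF2S2 22.6% of 50-base words with other genes, so their counts are less certain than those of EIF2S1, at 4.96%.

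The promoters of EIF2S1 and EIF4A3 are given because these genes had the largest rise and the largest fall above 20 CPM between the siRNAs. Both run 5' to 3' on the gene's strand from 250 bases before to 50 bases after the RefSeq start (GRCh38.p14), with searched words in capitals. EIF2S1 lies at chr14:67360078-67360377 on the plus strand, and EIF4A3 at chr17:80147079-80147378 on the minus strand.
EIF2S1: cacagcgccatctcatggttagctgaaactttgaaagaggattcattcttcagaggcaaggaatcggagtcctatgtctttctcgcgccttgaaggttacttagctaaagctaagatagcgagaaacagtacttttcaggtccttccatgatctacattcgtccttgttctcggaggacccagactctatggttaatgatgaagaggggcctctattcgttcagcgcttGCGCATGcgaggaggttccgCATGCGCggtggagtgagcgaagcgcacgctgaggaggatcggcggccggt
EIF4A3: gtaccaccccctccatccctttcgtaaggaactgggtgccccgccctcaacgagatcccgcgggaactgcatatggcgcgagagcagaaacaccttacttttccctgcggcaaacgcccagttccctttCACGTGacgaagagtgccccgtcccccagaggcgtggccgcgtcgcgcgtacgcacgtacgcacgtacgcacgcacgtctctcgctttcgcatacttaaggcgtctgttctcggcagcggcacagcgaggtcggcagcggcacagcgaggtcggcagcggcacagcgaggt
In EIF2S1 the capitals mark the NRF1-type word GCGCATG and its reverse complement, which begin 21 bases and 1 base before the start. In EIF4A3 they mark the E-box CACGTG, the word bound by MYC, MAX and related factors, 121 bases before the start.

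Searched on both strands in the promoters of 43 matched genes, the E-box was present in 11 (25.6%), against 9.26% of the promoters of tested genes. It was in 0 of 7 promoters of genes called higher, 1 of 5 of genes called lower and 9 of 26 of genes not called between the siRNAs. The ETS core CCGGAAG was in 10 (23.3%, against 16.1%), with 3 of 7 called higher, 0 of 5 called lower and 7 of 26 not called. The CRE word TGACGT was in 5 (11.6%, against 10.2%) and the NRF1-type word in 4 (9.30%, against 6.49%). The 43 promoters include genes that were not tested, whereas the shares beside them are of tested genes only. EIF4A1 and EIF4EBP3, both untested, hold the CRE word. Among tested genes it was in 2 of 7 called higher, 0 of 5 called lower and 1 of 26 not called. A word in a promoter is a match of letters and not a measured binding site.

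Of the 5 subunits of eIF2B, the exchange factor that recharges eIF2, only EIF2B2 was called. It had 94.2 and 93.5 CPM with the FAT4 siRNA, against 85.7 and 70.5 CPM in the control libraries (edgeR log2 fold change 0.27, SE 0.0987, adjusted p = 0.0278). Its FAT4 siRNA values were nearly equal and lay above both control values. Of its 50-base words, 27.5% occurred in other genes. The other 4 subunits had fitted log2 values between -0.20 for EIF2B4 and 0.20 for EIF2B3, and none of them passed. EIF2A, a separate protein able to deliver the initiator tRNA without eIF2, had 196 and 187 CPM with the FAT4 siRNA, against 167 and 138 CPM in the control libraries (edgeR log2 fold change 0.33, SE 0.0923, adjusted p = 0.00279). Both FAT4 siRNA values of EIF2A lay above both control values. With GC content and length as offsets its log2 fold change was 0.19 and it lost its call. EIF2D, with a log2 value of 0.12, did not pass. Of the start codon factors EIF1, EIF1B and EIF1AX, and EIF1AD, grouped with them by symbol only, none was called, with log2 values between -0.10 and 0.08.

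Among the 12 tested genes of eIF3, the scaffold of the small subunit, 2 rose, 1 fell and 9 were not called. The share called, 25%, was near the 25.9% of all genes tested. EIF3J, a loosely bound subunit that acts at the mRNA entry channel, had 264 and 229 CPM with the FAT4 siRNA, against 197 and 178 CPM in the control libraries (edgeR log2 fold change 0.39, SE 0.0907, adjusted p = 0.000214). EIF3E, also known as INT6, had 317 and 283 CPM with the FAT4 siRNA, against 255 and 230 CPM in the control libraries (edgeR log2 fold change 0.31, SE 0.0895, adjusted p = 0.00447). Neither gene's groups overlapped, and both had plain CPM ratios of nearly the same size at 24 h and 48 h, at 1.32 and 1.27 for EIF3J and 1.23 and 1.22 for EIF3E. With GC content and length as offsets, EIF3E had a log2 fold change of 0.12 and lost its call, and EIF3J had 0.24 and kept it. EIF3B, a large core subunit, had 550 and 369 CPM with the FAT4 siRNA, against 618 and 447 CPM in the control libraries (edgeR log2 fold change -0.22, SE 0.0884, adjusted p = 0.0464). Its groups overlapped, and it lost its call under 5 of 7 other settings, with a log2 fold change of -0.09 under the GC content and length offsets. EIF3D, a cap-binding subunit, had 324 and 261 CPM with the FAT4 siRNA, against 295 and 211 CPM in the control libraries, and just missed the threshold (edgeR log2 fold change 0.22, adjusted p = 0.0522). The remaining 8 lay between -0.21 for EIF3F and 0.19 for EIF3M. EIF3F shared 46.9%, EIF3L 42.0%, EIF3E 16.3% and EIF3M 14.6% of 50-base words with other genes, so their counts are less certain. Over the 12 tested genes, summed CPM were 4169 and 3511 with the FAT4 siRNA, against 3900 and 3353 in the control libraries, a ratio of 1.07 and 1.05. EIF3C and EIF3CL were not measured, so this is not a sum for the whole complex.

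**Figure D2:**
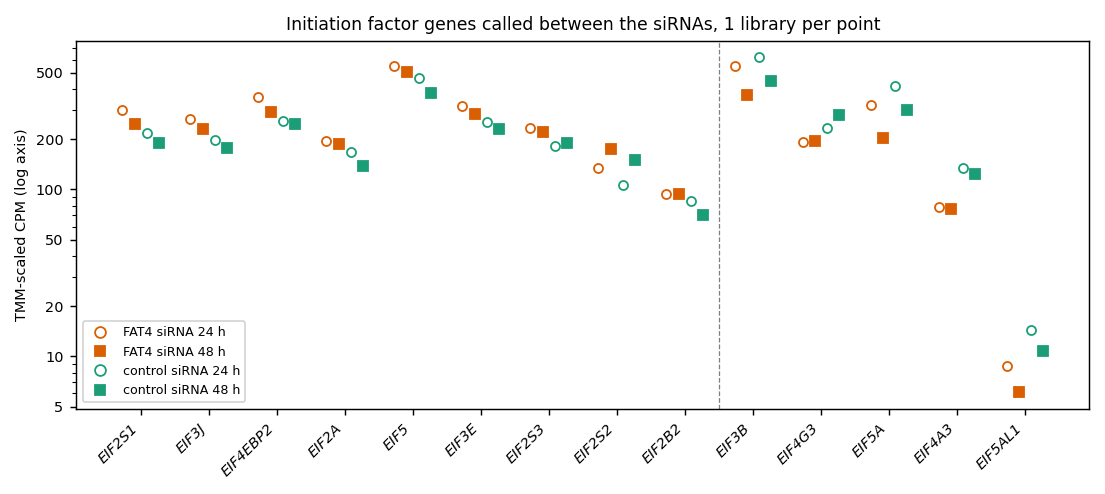
Each gene called between the siRNAs has 4 points, 1 per library, as TMM-scaled CPM on a log axis: FAT4 siRNA in orange, control siRNA in green, open circles for 24 h and filled squares for 48 h. Genes left of the dashed line were called higher and those right of it lower. EIF2S1 and EIF3J have both orange points above both green ones, and EIF4A3 has both orange points below, at 78.6 and 76.2 against 135 and 125.

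The cap-binding proteins showed no call, whereas 1 of their inhibitors did. EIF4EBP2 had 357 and 293 CPM with the FAT4 siRNA, against 258 and 248 CPM in the control libraries (edgeR log2 fold change 0.35, SE 0.0895, adjusted p = 0.000815). Its groups did not overlap, and its plain CPM ratio was 1.36 at 24 h and 1.17 at 48 h. EIF4E, the cap-binding subunit, had 29.4 and 28.2 CPM with the FAT4 siRNA, against 29.9 and 30.03 CPM in the control libraries. These 4 values were close together, and its log2 value of -0.06 did not pass. The number of EIF4EBP2 counts for each EIF4E count was 12.2 and 10.4 with the FAT4 siRNA, against 8.64 and 8.26 in the control libraries. EIF4E2, a homologue used in silencing, and EIF4E3 had log2 values of -0.11 and -0.35 and did not pass, EIF4E3 at only 1.35 to 2.68 CPM. EIF4EBP1 and the eIF4E transporter EIF4ENIF1 were not called between the siRNAs either.

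EIF4A3 was the most strongly lowered initiation factor gene above 20 CPM. This helicase shares its fold with EIF4A1 and EIF4A2 but is deposited on spliced mRNA at exon junctions. EIF4A3 had 78.6 and 76.2 CPM with the FAT4 siRNA, against 135 and 125 CPM in the control libraries. The groups lay far apart, and the times gave nearly the same values. The plain CPM ratio was 0.574 (95% counting interval 0.536 to 0.615) at 24 h and 0.605 (0.564 to 0.649) at 48 h. The edgeR log2 fold change was -0.74 (SE 0.0971, adjusted p = 2.13e-12). None of its 50-base words occurred in another gene. EIF4A2, EIF4B and EIF4H, a helicase of initiation and its cofactors, had log2 values of 0.15, 0.14 and 0.02 and were not called. Counts of EIF4A3 for each count of EIF4A2 were 0.188 and 0.165 with the FAT4 siRNA, against 0.346 and 0.308 in the control libraries.

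Of the 3 eIF4G scaffolds, EIF4G3 fell, with 192 and 194 CPM with the FAT4 siRNA, against 235 and 278 CPM in the control libraries (edgeR log2 fold change -0.40, SE 0.0906, adjusted p = 0.00013). Its groups did not overlap. The main scaffold EIF4G1 had a log2 value of -0.05 and EIF4G2 one of 0.08, and neither passed. Of the joining factors, EIF5, which triggers GTP hydrolysis by eIF2, had 546 and 502 CPM with the FAT4 siRNA, against 467 and 379 CPM in the control libraries (edgeR log2 fold change 0.31, SE 0.0884, adjusted p = 0.00298). Both FAT4 siRNA values of EIF5 exceeded both control values. EIF5B, the GTPase of subunit joining, and EIF6, which keeps free large subunits from joining, had log2 values of 0.20 and 0.05 and did not pass.

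EIF5A, the hypusine-bearing factor now known mainly for elongation and termination, fell. It had 321 and 203 CPM with the FAT4 siRNA at 24 h and 48 h, against 418 and 300 CPM in the control libraries (edgeR log2 fold change -0.47, SE 0.0895, adjusted p = 3.23e-06). It was lower with the FAT4 siRNA at each time, although its groups overlapped across times. Its near copy EIF5AL1 had 8.73 and 6.14 CPM with the FAT4 siRNA, against 14.4 and 10.7 CPM in the control libraries (edgeR log2 fold change -0.76, SE 0.178, adjusted p = 0.000255). EIF5AL1 counts were 2.72% and 3.03% of EIF5A counts with the FAT4 siRNA, against 3.45% and 3.58% in the control libraries. Of the 50-base words of EIF5A, 30.1% occurred in EIF5AL1, so the copies' counts may be mixed and the second call is not independent of the first. EIF5A2, the tissue-restricted paralogue, had 19.96 and 21.2 CPM with the FAT4 siRNA, against 17.6 and 18.5 CPM in the control libraries, and did not pass (log2 value 0.19).

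Of the 46 tested genes, 40 had the same sign at 24 h and 48 h, in single pairs of libraries. The same share over all genes tested was not taken. In ratios of CPM plus 1, EIF4A3 and EIF5AL1 were the 2 of the 46 genes that changed beyond 1.5-fold at either time. The share of all genes tested beyond 1.5-fold was not taken either. The 5 genes above a mean of 5 CPM with the largest difference between the times all had the higher log2 ratio at 48 h. They were EIF3IP1 (-0.07 at 48 h, -0.35 at 24 h), EIF2B2 (0.40, 0.14), EIF6 (0.18, -0.08), EIF1AD (0.09, -0.15) and EIF3K (0.28, 0.05). EIF3K had 163 and 170 CPM with the FAT4 siRNA at 24 h and 48 h, against 158 and 139 CPM in the control libraries. EIF1AD had 58.9 and 55.3 CPM with the FAT4 siRNA, against 65.6 and 52.0 CPM in the control libraries. For EIF1AD the siRNA groups overlapped, and for EIF3K they did not. These differences could not be tested, since a model with an interaction leaves no residual. EIF3IP1 had 10.2 and 11.4 CPM with the FAT4 siRNA, against 13.3 and 12.03 CPM in the control libraries, and its counts were 3.98% and 5.06% of those of EIF3I with the FAT4 siRNA, against 4.91% and 4.83% in the control libraries.

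**Figure D3:**
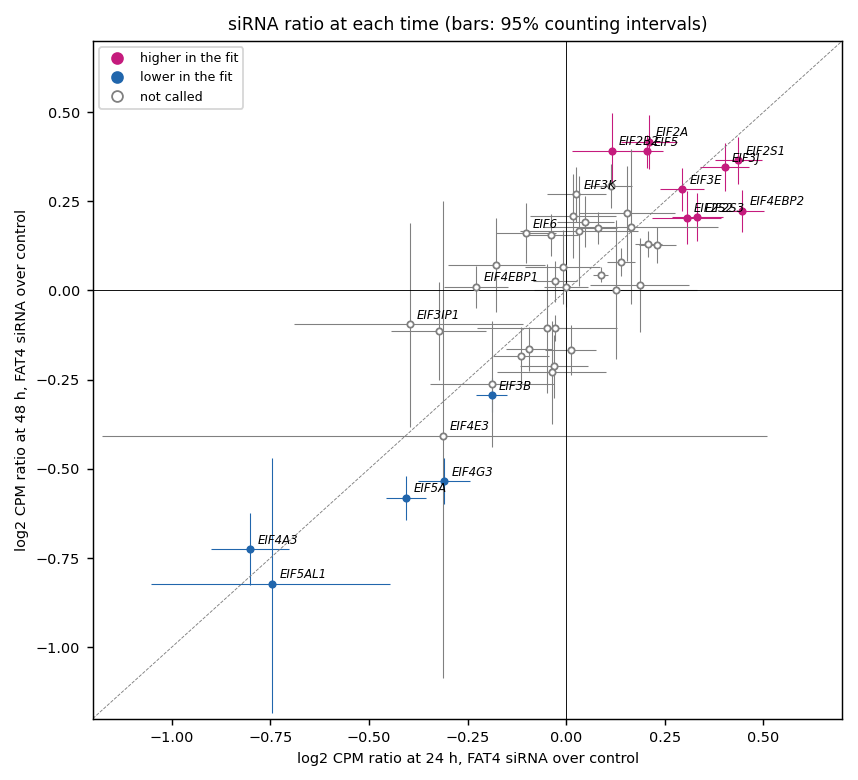
Each point is 1 tested gene, with its log2 ratio of plain CPM, FAT4 siRNA over control siRNA, at 24 h (horizontal) and at 48 h (vertical). Bars are exact 95% counting intervals and hold no spread between cultures; the dashed line marks equal ratios. EIF4A3 and EIF5AL1 lie lowest at both times, and EIF6 lies left of 0 at 24 h and above 0 at 48 h.

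The comparison of the times asked which initiation factors differed between 48 h and 24 h on average over both siRNAs. EIF4EBP1, an inhibitor of eIF4E, nearly doubled, and EIF2S2 and EIF1 rose. EIF5A, the scaffolds EIF4G1 and EIF4G2, and the eIF3 subunits EIF3B, EIF3D and EIF3G fell. The edgeR test called 13 of the 46 genes (28.3%), against 26.6% of all genes tested. It called 3 higher (6.52%, against 13.8%) and 10 lower (21.7%, against 12.8%). The median log2 fold change was -0.16 over the initiation factors and 0.01 over all genes tested. Under each siRNA, 34 of the 46 genes had a lower value at 48 h, with a median log2 ratio of -0.13 with the FAT4 siRNA and -0.14 with the control siRNA. Over all genes tested these medians were 0.005 and 0.016, and the share with a lower value was not taken.

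EIF4EBP1, the best known of the eIF4E-binding proteins and a target of mTOR, had 269 CPM at 48 h and 132 CPM at 24 h with the FAT4 siRNA. With the control siRNA it had 264 CPM at 48 h and 152 CPM at 24 h. The times were far apart under both siRNAs, and the siRNAs were close at 48 h. The plain CPM ratio of 48 h to 24 h was 2.13 with the FAT4 siRNA (95% counting interval 2.02 to 2.25) and 1.81 with the control siRNA (1.73 to 1.89). The edgeR log2 fold change was 0.91 (SE 0.0919, adjusted p = 6.11e-21). For each EIF4E count there were 9.54 EIF4EBP1 counts at 48 h and 4.48 at 24 h with the FAT4 siRNA. With the control siRNA there were 8.80 at 48 h and 5.07 at 24 h.

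EIF2S2 had 176 and 151 CPM at 48 h with the FAT4 and the control siRNA, against 134 and 107 CPM at 24 h (edgeR log2 fold change 0.45, SE 0.0939, adjusted p = 3.88e-05). EIF2S1 moved the other way, with 245 and 189 CPM at 48 h against 299 and 218 CPM at 24 h (edgeR log2 fold change -0.25, SE 0.0900, adjusted p = 0.0269). EIF2S3 was not called between the times. For each EIF2S2 count there were 1.40 EIF2S1 counts at 48 h and 2.24 at 24 h with the FAT4 siRNA, and 1.25 and 2.04 with the control siRNA. EIF1, which guards start codon choice, had 276 and 245 CPM at 48 h, against 197 and 199 CPM at 24 h (edgeR log2 fold change 0.39, SE 0.0904, adjusted p = 0.000235). Both 48 h values of EIF1 lay above both 24 h values.

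Of the genes that fell with time, EIF5A had the largest change, with 203 and 300 CPM at 48 h for the FAT4 and the control siRNA, against 321 and 418 CPM at 24 h (edgeR log2 fold change -0.57, adjusted p = 1.15e-08). EIF3B had 369 and 447 CPM at 48 h, against 550 and 618 CPM at 24 h (edgeR log2 fold change -0.52, adjusted p = 1.56e-07). The groups of both genes were separate. EIF4G1 had 655 and 697 CPM at 48 h, against 931 and 935 CPM at 24 h (edgeR log2 fold change -0.46, adjusted p = 3.63e-06). EIF5AL1 had 6.14 and 10.7 CPM at 48 h, against 8.73 and 14.4 CPM at 24 h (edgeR log2 fold change -0.46, adjusted p = 0.0384). EIF4G1 had almost equal levels under both siRNAs at 24 h, while the times overlapped for EIF5AL1. EIF2B4, the delta subunit of eIF2B, had 48.1 and 51.5 CPM at 48 h, against 59.0 and 72.7 CPM at 24 h (edgeR log2 fold change -0.40, adjusted p = 0.00181). EIF3D had 261 and 211 CPM at 48 h, against 324 and 295 CPM at 24 h (edgeR log2 fold change -0.40, adjusted p = 0.00015).

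The other 3 genes called lower besides EIF2S1 were EIF3G, EIF4G2 and EIF6, with edgeR log2 fold changes of -0.35, -0.28 and -0.27. EIF4G3 was not among them: it had 194 and 278 CPM at 48 h, against 192 and 235 CPM at 24 h. Counts of EIF4G3 for each count of EIF4G1 were 0.297 at 48 h and 0.207 at 24 h with the FAT4 siRNA, and 0.399 and 0.251 with the control siRNA. By role, all 12 tested eIF3 genes had negative fitted values between -0.52 and -0.06, and all 5 eIF2B genes had values between -0.40 and -0.15. Of these, 3 eIF3 genes (25%) and 1 eIF2B gene (20%) were called, all lower. Over all genes tested, 26.6% were called in either direction and 12.8% lower. The share of all genes with a negative fitted value was not taken. The 4 tested genes of the helicase group stayed between -0.08 and 0.10, and none of them was called. EIF4E and EIF4E2 had values of -0.03 and -0.05, and EIF4E3 had 0.65 (SE 0.337) at its low level; none of the 3 passed.

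**Figure D4:**
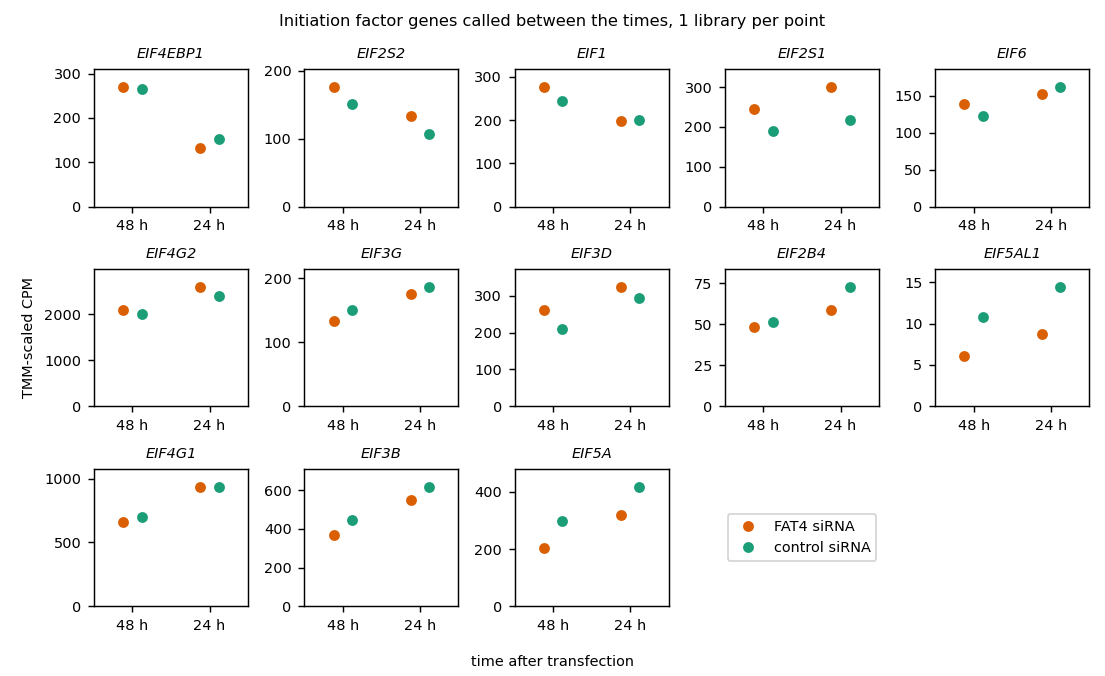
Each small plot is 1 of the 13 genes called between the times, with TMM-scaled CPM at 48 h (left) and 24 h (right) for the FAT4 siRNA (orange) and the control siRNA (green), 1 library per point. Plots run from the largest rise, EIF4EBP1, to the largest fall, EIF5A, whose values were 203 and 300 CPM at 48 h against 321 and 418 CPM at 24 h.

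GC content of the reference transcript differed between the genes called higher and lower. The 9 genes called higher with the FAT4 siRNA had GC contents of 38.2% to 45.8% (median 41.6%), and the 5 called lower 44.4% to 57.3% (median 51.2%). The 32 not called spanned 34.3% to 65.5% (median 48.0%), which covers the ranges of both called groups. For the times, the 3 genes called higher had a median of 46.4%, the 10 called lower 56.2% and the 33 not called 44.4%. Both medians of genes called for time thus lay above that of genes not called. GC content over all genes tested was not taken. EIF4EBP1, the gene with the largest rise, had the highest GC content at 65.5%. With GC content and length as offsets in the edgeR fit, 7 of the 9 higher and 4 of the 5 lower genes kept their siRNA call. EIF2A, EIF3E and EIF3B lost theirs, and EIF3D, EIF3K (higher) and EIF1AX (lower) gained one. Under that correction all 10 genes called lower at 48 h kept the call and 25 in all were called lower. Over all genes it gave 1602 higher and 1258 lower for the siRNA, against 1625 and 1930 without it, and 1349 higher and 2674 lower for the time, against 1892 and 1754.

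**Figure D5:**
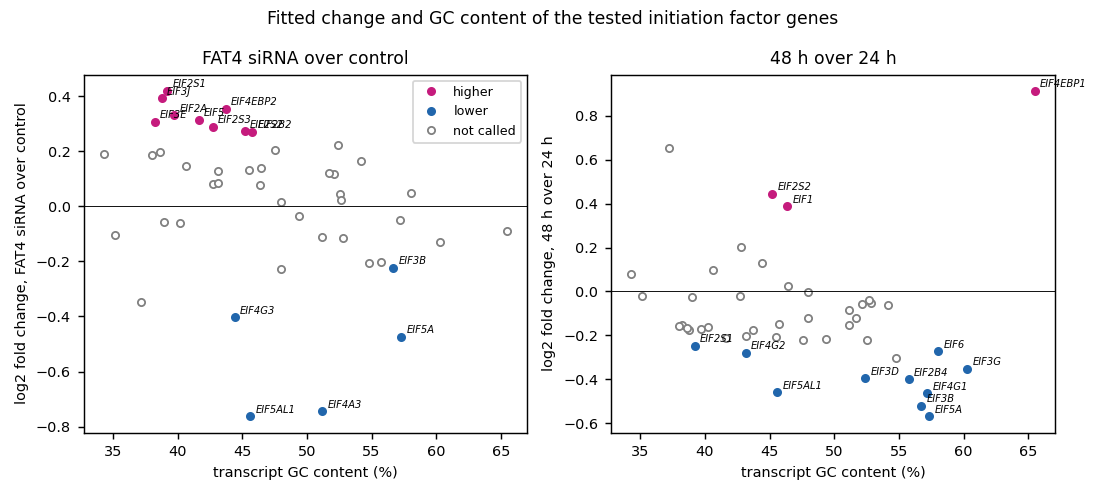
Each point is 1 of the 46 tested genes, with the GC content of its reference transcript (horizontal, in percent) and its edgeR log2 fold change (vertical) for FAT4 siRNA over control siRNA on the left and 48 h over 24 h on the right. Pink and blue points were called higher and lower. The genes called higher with the FAT4 siRNA lie between 38.2% and 45.8% GC, inside the 34.3% to 65.5% of the genes not called.

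A pair of words of 7 bases had been picked out in 3' UTRs by an earlier analysis of these same ratios, so their place here is a description. AGCCTTA was in the 3' UTRs of 4 of 43 searched initiation factors (9.30%), against 10.1% of all 11400 searched genes. Its carriers were EIF2S1 and EIF3J, both called higher with the FAT4 siRNA, and EIF4E3 and EIF4G2, which were not called. TTGGACT was in 5 of 43 (11.6%), against 10.7% of all searched genes. Of the 5 carriers, EIF5AL1 was called lower and EIF1, EIF1AD, EIF1AX and EIF3M were not called. Both EIF5AL1 and the uncalled EIF1AX hold it at 2 sites. EIF4A3 held neither word. The windows of the called genes (for EIF5AL1, the site nearer the start of the 3' UTR) are given with the word in capitals, on the plus strand of GRCh38, at chr14:67384052-67384080 for EIF2S1, chr15:44561493-44561521 for EIF3J and chr10:79513198-79513226 for EIF5AL1.
EIF2S1: tagcgggacaaAGCCTTAaaatgcattga
EIF3J: ttcagtaatacAGCCTTAaccatacctcc
EIF5AL1: ctggtcctaggTTGGACTcctcctacaca

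Partners of the initiation factors were taken as a list of 46 genes for regulation of eIF2, mTOR signalling, poly(A)-binding proteins, elongation and termination, all of which were tested. Between the siRNAs 9 were called higher (19.6%, against 11.9% of all genes tested) and 6 lower (13.0%, against 14.1%). Their median log2 fold change was -0.06, against -0.014 over all genes. DENR, which recycles small subunits, had 203 and 193 CPM with the FAT4 siRNA, against 117 and 108 CPM in the control libraries (edgeR log2 fold change 0.82, adjusted p = 4.34e-16). BZW1, a mimic of EIF5, had 155 and 134 CPM with the FAT4 siRNA, against 88.8 and 75.6 CPM in the control libraries (edgeR log2 fold change 0.82, adjusted p = 3.51e-15). Both genes had groups well apart. PPP1R15A, the regulatory subunit that directs a phosphatase to eIF2, had 116 and 124 CPM with the FAT4 siRNA, against 97.6 and 64.3 CPM in the control libraries. Its edgeR log2 fold change of 0.59 averaged unequal times, with plain CPM ratios of 1.17 at 24 h and 1.90 at 48 h, and DESeq2 did not call it. The release factor ETF1 rose by 0.57 on the log2 scale. CTIF, which serves initiation on the nuclear cap-binding complex, fell by 0.66. The eIF4E kinases MKNK2 and MKNK1 fell by 0.51 and 0.42, and the ribosomal S6 kinase RPS6KB2 fell by 0.37. Under the GC content and length offsets CTIF had -0.44 and MKNK2 had -0.25 with their calls kept, while MKNK1 had -0.34 and RPS6KB2 had -0.16 and lost theirs. DESeq2 did not call MKNK1 or RPS6KB2 either.

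Between the times 5 of these 46 genes were called higher (10.9%, against 13.8% of all genes tested) and 8 lower (17.4%, against 12.8%). Their median was -0.10, against 0.01 over all genes. PDCD4, an inhibitor of the eIF4A helicase, had 74.2 and 59.0 CPM at 48 h with the FAT4 and the control siRNA, against 22.3 and 21.2 CPM at 24 h (edgeR log2 fold change 1.60, adjusted p = 5.39e-38). The stress-response factor ATF4 had 461 and 396 CPM at 48 h, against 259 and 259 CPM at 24 h (edgeR log2 fold change 0.72, adjusted p = 7.56e-14). The times did not overlap for either gene. PAIP2B, an inhibitor of the poly(A)-binding protein, rose by 1.67 and the elongation factor EEF1A2 by 0.88, both at under 5 CPM, and DESeq2 did not call EEF1A2. DOHH, which completes hypusine on EIF5A, fell by 0.62, PABPC4 by 0.52, the helicase DDX3X by 0.39 and the elongation factor EEF1D by 0.34.

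The calls rest on the assumption that siRNA and time act independently on the log scale and on a spread taken from all genes. With the other term left out of the edgeR fit, no initiation factor was called in either comparison. That fit called 0 of all 13712 genes for the siRNA, and 46 higher and 4 lower for time. Of the initiation factors, 3 higher and 3 lower between the siRNAs and 3 higher and 7 lower between the times had an unadjusted p under 0.05. DESeq2 did not call EIF2B2, EIF2S2, EIF2S3, EIF3B and EIF5AL1 between the siRNAs, nor EIF2B4, EIF2S1, EIF5AL1 and EIF6 between the times.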

How the data were processed

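Each siRNA and time had 1 RNA-seq library of A673 cells. A stranded TruSeq mRNA kit was used, per the labels' protocols. Tools named in the submitters' processing notes are HTSeq, TopHat2, SAMtools and CASAVA 1.8.2, with the genome build hg19. What the authors deposited were raw read counts for each gene, 1 library per file. Which annotation, counting mode and strand setting were used is not stated, so counts of overlapping, antisense and near-identical genes are uncertain. The 5 counter entries of each file that name no gene stayed out of all totals: reads outside genes were 19.5% to 20.5% of assignable reads, ambiguous reads 0.772% to 0.804%, and alignments that were not unique 43.1 to 44.6 per 100 unique reads.

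Analysis started from these counts in edgeR 4.0.16 (R 4.3.3), scaled by TMM (factors 0.973 to 1.03), on 13712 genes that passed filterByExpr (minimum count 10, total 15). The quasi-likelihood model had additive terms for siRNA and for time across the 4 libraries, each tested two-sided with Benjamini-Hochberg adjustment over all genes at 0.05. It leaves 1 residual degree of freedom with infinite prior degrees of freedom (common BCV, the biological coefficient of variation, 0.0737). Its p-values judge an average change in single libraries and hold no spread between cultures. Log2 ratios at each time were taken from CPM plus 1, which understates changes of low genes. Plain CPM ratios have exact 95% Clopper-Pearson intervals, which, like the floor of 3 counts, cover counting error only.

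The members and lists were chosen with earlier results of these data known. Named genes were each initiation factor past the threshold for the siRNA, the 6 largest changes in each direction for the time, the 5 largest differences between the times, the 5 highest levels per length, and the 4 largest changes in each direction of other translation genes per comparison; EIF3D for the siRNA and the groups' other members were named after their values were seen. Lengths, GC content, 3' UTRs and shared 50-base words came from GENCODE release 29 (GRCh38), with a transcript matched for 87.8% of tested genes and for all 52 members; promoters came from RefSeq (GRCh38.p14). A comparison of protein sequences was not run, and the shared words, added after the counts were seen, took its place. The correction for GC content and length used splines of 5 and 4 degrees of freedom. On simulated counts for the siRNA comparison with 200 of 13483 genes changed, recovery was 87% for 2-fold and 71% for 1.5-fold changes, with 0.629% of calls false. These counts had the same fixed spread for every gene, near that of the fit, and no siRNA effect that differed between the times. The share of false calls depends on that setting and is not an error rate of the calls in these libraries. Alternatives were other scalings, filters and pseudocounts, no second term, the GC content correction and DESeq2 1.42.0.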

Additional observations from a re-analysis of the deposited data

Results flagged for a closer look

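EIF6, which keeps free large ribosomal subunits from joining, had siRNA ratios on opposite sides of 1 at the times. Its plain CPM ratio of FAT4 siRNA to control siRNA was 1.118 at 48 h (95% counting interval 1.055 to 1.185) and 0.931 at 24 h (0.883 to 0.982). It had 138 CPM at 48 h with the FAT4 siRNA, against 122 CPM with the control siRNA, and 153 CPM at 24 h with the FAT4 siRNA, against 162 CPM with the control siRNA. EIF3K, a peripheral subunit of eIF3, moved in opposite directions with time under the siRNAs. Its ratio of 48 h to 24 h was 1.086 with the FAT4 siRNA (1.028 to 1.148) and 0.917 with the control siRNA (0.872 to 0.964). Each rests on 1 library per group and on intervals for counting error alone. The difference was not tested in either case, since no replicate is left for it.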

How the results depend on the processing

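No paired analysis was possible because each siRNA and time had 1 library with no replicate number, and for the same reason no library could be left out with its group kept. Of 48 alternative values for the counts and medians of initiation factors, no median changed sign. Counts that moved by over 1.5 times were these. Without the other term, 0 initiation factors were called higher and 0 lower in either comparison. With DESeq2, 3 were called lower between the siRNAs (EIF3B and EIF5AL1 lost) and 6 between the times (EIF2B4, EIF2S1, EIF5AL1 and EIF6 lost). With the correction for GC content and length, 25 were called lower at 48 h, among them all 10 of the uncorrected fit; the correction moved the median log2 change of all genes for time to -0.067, and fewer genes (12040) entered it. Over all genes DESeq2 called 600 higher and 644 lower for the siRNA and 531 and 645 for time, against 1625, 1930, 1892 and 1754 with edgeR. Upper quartile scaling gave 2309 higher and 1232 lower for time, with 7 initiation factors lower. The median of the initiation factors ranged from 0.080 to 0.090 for the siRNA and from -0.245 (GC content and length correction) to -0.103 (upper quartile scaling) for time, against -0.155 in the main analysis. At 24 h their median log2 ratio was 0.0142 with total gene counts as scaling, against 0.0354. DESeq2 also dropped EIF2B2, EIF2S2 and EIF2S3 from those called higher. EIF3B lost its siRNA call under DESeq2-type size factors, without a filter, with the GC content correction, with DESeq2 and without the time term. No called gene changed sign. Fitted log2 fold changes of 12 genes that were not called did. With the GC content and length correction these were EIF1B (-0.0316), EIF3G (0.0224), EIF4EBP1 (0.202), EIF4G1 (0.138) and EIF5A2 (-0.00687) for the siRNA, and EIF4B (-0.0304) and EIF5A2 (-0.0606) for time. With upper quartile scaling they were EIF1AX (0.0298), EIF2S3 (0.0321), EIF3IP1 (0.0478), EIF4E (0.0272), EIF4E2 (0.00168) and EIF4H (0.0116) for time, and with a mean of at least 5 CPM EIF3IP1 (0.00803) for time. The cause of each change was not tested. Depth was enough for every tested gene but EIF4E3 to have over 6 CPM in each library, against floors of 0.133 to 0.197 CPM. No replicate culture was available.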
